A study of Mus musculus with 9 samples.

Results

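The genes that build and load MHC class II molecules were followed in splenic B cells of leukemic and wildtype mice. The 10 genes were listed by name: H2-Aa, H2-Ab1, H2-Eb1, H2-DMa, H2-DMb1, H2-DMb2, H2-Oa, H2-Ob, Cd74 and Ciita. All 10 were found among the 22154 genes of the summed read counts, and all 10 passed the filter on low counts that left 11165 genes for testing. The study asked how the leukemia of mice that express human MTCP1 in B cells compares with that of the established Eµ-TCL1 model, and RNA-sequencing was performed on 9 libraries, 1 per mouse. Every mouse was of the strain C57/BL6NTac. Eµ-MTCP1 mice carried human MTCP1 (hMTCP1) and Eµ-TCL1 mice human TCL1A, each transgene driven by an immunoglobulin heavy chain promoter and the Eµ enhancer, which restricts it to lymphoid cells, mainly B cells. The 3 Eµ-MTCP1 mice (Z2641, Z2606 and Z2551) came from a single founder line in which the transgene had integrated in an intron of Fam168a. The 3 Eµ-TCL1 mice were C1594, B4437 and B4376, and the 3 wildtype mice (Z2785, Z2755 and Z2754) were littermates without hMTCP1. Both transgenic groups had marked disease burden and were matched for age, while ages in weeks or months were not given for these mice. Values of a group are listed below in the order in which the mice are named here.

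Class II molecules carry peptides from internalized proteins to the cell surface, where CD4+ T cells read them. In mice of the C57BL/6 background the I-A molecule, a pair of the H2-Aa and H2-Ab1 chains, is the class II molecule at the surface, since the alpha chain that would pair with H2-Eb1 is not made. The invariant chain Cd74 fills the groove of new class II molecules, H2-DM (H2-DMa with H2-DMb1 or H2-DMb2) exchanges its remnant for peptide, and H2-DO (H2-Oa with H2-Ob), found in B cells above all, restrains H2-DM. Ciita is the coactivator that switches on the promoters of these genes. It binds no DNA itself but sits on the factors assembled on the X and Y boxes of class II promoters.

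Between 6447539 and 8033309 reads per library were assigned to mouse genes on a reference of coding sequences. In the normalized table deposited by the authors, hMTCP1 was at 11.1 to 12.3 (log2-like scale) in Eµ-MTCP1 mice and at 5.849 to 6.191 in the other mice, and hTCL1A was at 14.9 to 15.6 for Eµ-TCL1 mice and at 6.04 to 6.96 in the others, so that each transgene was where the labels place it. The 7 B cell markers summed to 7599 to 10552 CPM (reads scaled to a common library total) over the 9 libraries. The library of Z2755 was on lane 1 and the other 8 were on lane 5. Lane and mouse cannot be told apart there, and values without Z2755 are given where they change a call. The libraries of Z2641 and Z2755 also had the most reads on 5 neutrophil markers, with sums of 1159.7 and 1850.5 CPM against 9.79 to 238 in the other libraries. Mitochondrial genes took 10.8% of reads in Z2754 and 8.02% in Z2641, against 2.91 to 4.57% in the other libraries. Both mice had the lowest Ciita and Cd74 CPM of their groups, and a link to this share was not tested.

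The promoter stretch that runs from the X box up to the Y box is shown for 3 members and for H2-Eb2, since the X and Y boxes are the landing site of the machinery that Ciita completes. RefSeq promoter windows (GRCm38.p6, 250 bases before to 50 after the start site) were found for 7 of the 10 genes, H2-DMa with 2 windows. The X box core ACNGATG followed by the Y box ATTGG in the same orientation, with 20 to 40 bases from start to start, was present for H2-DMb1, H2-DMb2 and H2-Eb1, that is in 3 of the 8 member windows and in 0.161% of all 32851 windows. Alone, either motif was common when both strands were searched: the X core was in 9.85% and the Y box in 37.4% of all windows. The stretch from the X core (in capitals) to the base before the Y box reads, 5′ to 3′ on the plus strand:
H2-DMb1: ACTGATGatgctaggctgattcactcagtg
H2-DMb2: ACCGATGatgctaggctaagtcacttagtg
H2-Eb1: ACTGATGatgctggactcctttgatgctg
H2-Eb2: ACTGATGctgctggtgctcttggctgctg

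These lie at chr17:34153100-34153129 for H2-DMb1, chr17:34145129-34145158 for H2-DMb2, chr17:34305779-34305807 for H2-Eb1 and chr17:34325546-34325574 for H2-Eb2, a beta chain gene beside H2-Eb1 that is not among the 10. The X core began 91, 120, 88 and 129 bases before the RefSeq start sites of H2-DMb1, H2-DMb2, H2-Eb1 and H2-Eb2. In the GENCODE annotation H2-DMb1 starts further upstream, so that its stretch falls within the annotated 5′ UTR, and 1 transcript of H2-DMb2 does too, so that the H2-DMb2 stretch lies in the first intron of that transcript and before the start of others. The stretches of H2-DMb1 and H2-DMb2 were identical at 26 of 30 bases, and those of H2-Eb1 and H2-Eb2 at 22 of 29. The matches describe letters in these windows and were not tested for function.

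Class II transcripts were abundant in all 3 groups. The 10 genes took 3.13%, 4.56% and 3.70% of assigned reads in Eµ-MTCP1 mice, 4.42%, 3.22% and 3.34% for Eµ-TCL1 mice and 5.12%, 4.78% and 4.28% in wildtype mice. The 2 transgenic mice with the highest share, Z2606 and C1594, lay above the lowest wildtype mouse. Cd74 alone made up 55.1 to 59.6% of these reads in every library.

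Levels of different genes were compared by TPM, which divides by transcript length. In wildtype B cells the order was Cd74 (28732 ± 1597 TPM, SD, n = 3), H2-Ab1 (7482 ± 432), H2-Aa (3812 ± 195), H2-Eb1 (3249 ± 441), H2-DMb2 (1301 ± 170), H2-DMa (825 ± 76.6), H2-Oa (417 ± 29.3), H2-Ob (379 ± 33.3), H2-DMb1 (326 ± 37.8) and Ciita (220 ± 49.7). The ranges over mice did not overlap between neighbours in that order apart from H2-Oa with H2-Ob and H2-Ob with H2-DMb1. Cd74 ranked between the 2nd and the 4th most abundant gene by TPM in each library. H2-Eb1 thus stood close to H2-Aa although its protein has no alpha chain partner on this background. The first 6 genes held the same order, H2-DMb2 now overlapping with H2-DMa and, for Eµ-MTCP1, H2-Aa with H2-Eb1, in Eµ-MTCP1 mice (Cd74 at 21571 ± 3546 TPM down to H2-DMa at 599 ± 93.3) and in Eµ-TCL1 mice (21077 ± 4032 down to 700 ± 160), and Ciita was the lowest of the 10 in every group, at 77.0 ± 19.5 TPM in Eµ-MTCP1 and 70.5 ± 7.40 TPM in Eµ-TCL1 mice.

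**Figure D1:**
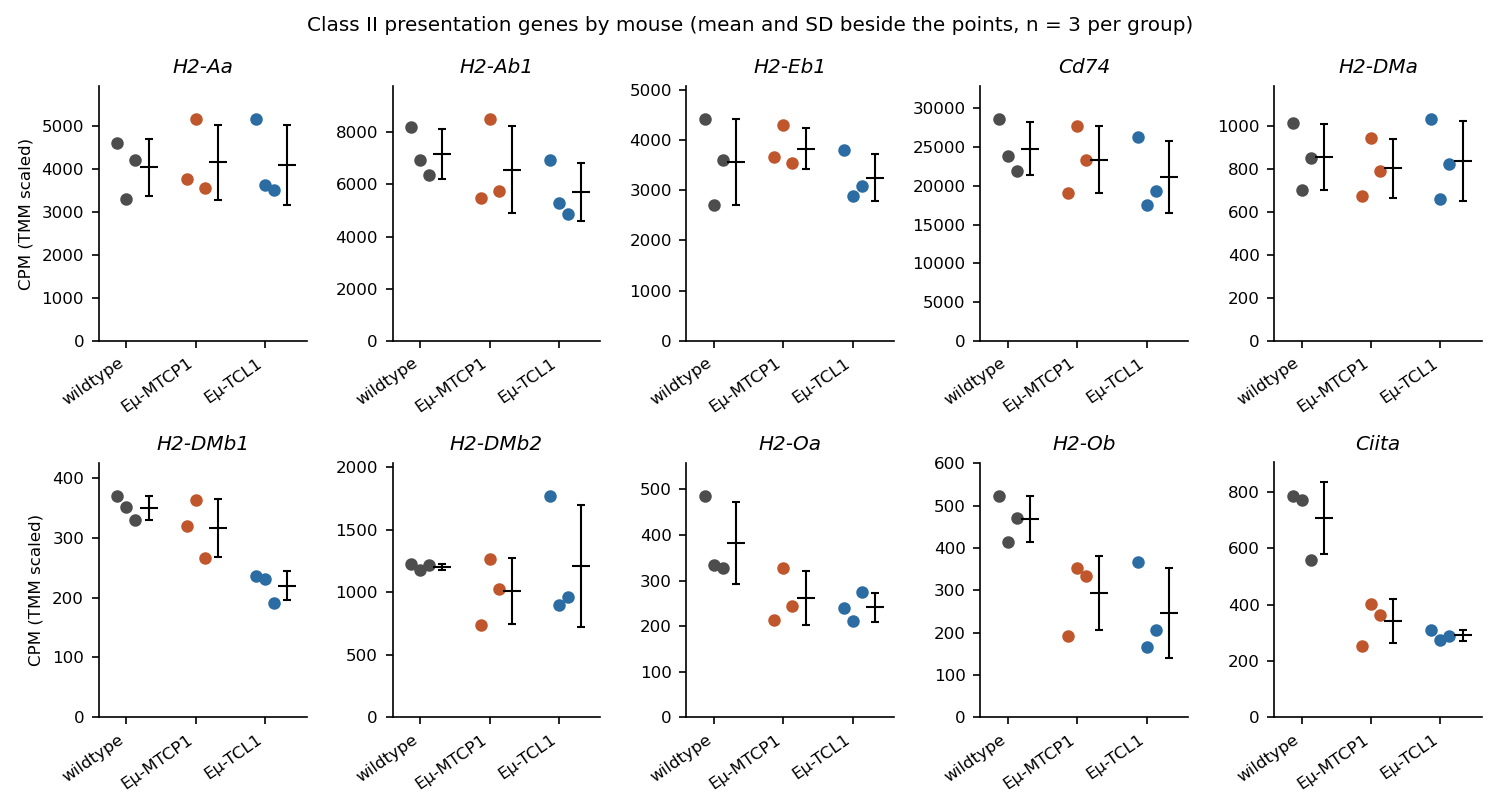
CPM (reads scaled to a common library total with TMM factors, vertical axes from 0) of the 10 class II presentation genes in each mouse, with the group mean and SD (n = 3) beside the points. Ciita lay between 559 and 786 CPM in wildtype mice and between 254 and 404 CPM in the 6 transgenic mice, whereas the points of H2-Aa, H2-Eb1, H2-DMa and Cd74 overlapped between groups.

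Differences between groups were tested on read counts, and CPM are given with TMM factors, which centre the bulk of genes. The test was edgeR's quasi-likelihood test over all 9 libraries. A gene was called when its p, adjusted by Benjamini-Hochberg over the 11165 genes, was under 0.05. Ciita was called lower in both leukemias and H2-DMb1 in Eµ-TCL1 leukemia alone, while the genes of the I-A chains, H2-Eb1, H2-DMa, H2-DMb2 and Cd74 were not called in any comparison. In Eµ-MTCP1 against wildtype 1 of the 10 genes was called, where 9.48% of all genes were called in either direction. In Eµ-TCL1 against wildtype 2 of 10 were called, against 9.2% of all genes. The fitted change was negative for 8 of 10 genes in each of these comparisons (10 of 10 by library size alone, which moved the median of all genes to -0.26 and -0.15), with medians of -0.14 and -0.28 on the log2 scale beside -0.021 and -0.0095 for all genes tested. The wildtype mice are shared by these 2 comparisons. By DESeq2, 1 and 4 of the 10 were called, where it called 14.8% and 15.3% of all genes. Because isolated B cells were sequenced in bulk, fewer cells that express a gene and less RNA per cell cannot be told apart.

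Ciita, the class II coactivator, stands at chr16:10480059-10528418. It was at 254, 404 and 365 CPM in Eµ-MTCP1 mice, 311, 273 and 289 CPM for Eµ-TCL1 mice and 786, 772 and 559 CPM in wildtype mice. All 6 transgenic mice lay below all 3 wildtype mice. The level in Eµ-MTCP1 was 2.07-fold lower than in wildtype (log2 fold change -1.05, SE 0.23, adjusted p = 0.0171), and that in Eµ-TCL1 2.42-fold lower (-1.28, SE 0.23, adjusted p = 0.00628). The Eµ-TCL1 call held without any single library (adjusted p of 0.00875 to 0.0249). The Eµ-MTCP1 call was lost, with the fold change little moved, without Eµ-MTCP1 mouse Z2551 (-1.10, adjusted p = 0.0539), wildtype mouse Z2785 (-0.97, adjusted p = 0.0515) or wildtype mouse Z2755 (-1.01, adjusted p = 0.0526). Eµ-TCL1 and Eµ-MTCP1 differed by -0.23 (95% interval -0.73 to 0.27), which was not called. Transcripts of Ciita begin at 3 places, known as promoters I, III and IV, of which promoter III is the one used by B cells. Transcripts from promoter III made up 53.9 ± 3.35% of Ciita TPM in Eµ-MTCP1, 51.8 ± 4.66% for Eµ-TCL1 and 49.3 ± 4.07% in wildtype mice (SD, n = 3). Transgenic and wildtype mice were not separated (exact permutation test, 6 against 3 mice, two-sided p = 0.214). These shares depend on the reference: the transcripts from promoter IV had 41.7 to 54.0% on the coding reference and 32.8 to 47.9% on the standard one, and some of their models are fragments, so the split is uncertain.

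The chains of the surface molecules were not called in either leukemia. H2-Ab1 (chr17:34257689-34269419) was at 5483, 8495 and 5727 CPM in Eµ-MTCP1, 6949, 5296 and 4860 CPM for Eµ-TCL1 and 8208, 6945 and 6341 CPM in wildtype mice. H2-Aa (chr17:34282744-34287823) was at 3749, 5146 and 3542 CPM, at 5147, 3609 and 3494 CPM, and at 4600, 3296 and 4198 CPM in the same groups. By these CPM the groups overlapped for both chains. By TPM, which is not centred by TMM factors, H2-Ab1 lay between 4485 and 6913 in the 6 transgenic mice and between 7037 and 7899 in wildtype mice, without overlap, while H2-Aa still overlapped. The log2 fold changes against wildtype were -0.13 (95% interval -0.69 to 0.44) and -0.33 (-0.89 to 0.24) for H2-Ab1 in Eµ-MTCP1 and Eµ-TCL1. For H2-Aa they were 0.04 (-0.53 to 0.61) and 0.02 (-0.55 to 0.58), a value near 0 whose sign turned when the libraries were scaled by their size alone. H2-Eb1 ranged from 3537 to 4292 CPM, from 2885 to 3788 CPM and from 2701 to 4409 CPM in Eµ-MTCP1, Eµ-TCL1 and wildtype mice, with fold changes of 0.10 (-0.43 to 0.63) and -0.13 (-0.67 to 0.40). The value of H2-Eb1 in Eµ-MTCP1 turned to -0.12 by library size alone. The number of I-A transcripts for each Ciita transcript, as a ratio of TPM, was 138, 117 and 86.2 in Eµ-MTCP1, 137, 104 and 121 for Eµ-TCL1 and 49.95, 42.7 and 66.5 in wildtype mice. This ratio was not tested. With Ciita as its denominator, it restates the lower Ciita beside I-A chains that were not called and is no separate result.

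Cd74, the invariant chain, was at 19061, 27773 and 23333 CPM in Eµ-MTCP1, 26357, 17551 and 19399 CPM for Eµ-TCL1 and 28606, 23903 and 21978 CPM in wildtype mice. The groups overlapped by CPM, and the log2 fold changes of -0.09 (95% interval -0.65 to 0.48) and -0.23 (-0.80 to 0.33) were not called. By TPM they did not overlap, at 18051 to 25654 in transgenic and 27693 to 30571 in wildtype mice. All 6 transgenic mice lay below all wildtype mice by TPM for 6 of the 10 genes (Ciita, H2-Oa, H2-Ob, H2-Ab1, H2-DMb1 and Cd74), as did 16.3% of all genes tested, and by CPM for 3 (Ciita, H2-Oa and H2-Ob), as did 9.14%. The isoforms of Cd74 shifted. Cd74 is made as a short chain of 215 residues and, with 1 more exon, as a long chain of 279 residues that carries a thyroglobulin domain able to bind cathepsins. The long isoform made up 3.54%, 5.52% and 4.06% of Cd74 TPM in Eµ-MTCP1 mice, 5.97%, 7.29% and 5.18% for Eµ-TCL1 mice and 10.2%, 10.02% and 10.5% in wildtype mice. Each transgenic mouse was below each wildtype mouse, and the wildtype mice spanned less than 1 percentage point. The mean was 5.26 ± 1.35% (SD, n = 6) in transgenic and 10.2 ± 0.221% (n = 3) in wildtype mice (exact permutation test, two-sided p = 0.0119, the smallest that 6 against 3 mice allow, and 0.0238 adjusted over the 2 shares tested). Between 5643 and 29340 reads per library were assigned to the long isoform. The share was 3.68 to 7.48% in transgenic and 10.8 to 11.0% in wildtype mice on the standard reference. Each model alone was compared with 3 wildtype mice, where the smallest exact p is 0.1, and both reached it.

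Of the chains of H2-DM 1 was called, H2-DMb1. H2-DMb1 (chr17:34153072-34160230) was at 320, 363 and 266 CPM in Eµ-MTCP1, 237, 232 and 191 CPM for Eµ-TCL1 and 370, 350 and 329 CPM in wildtype mice. The Eµ-TCL1 mice lay below all other mice. H2-DMb1 was 1.59-fold lower in Eµ-TCL1 than in wildtype (log2 fold change -0.67, SE 0.18, adjusted p = 0.0471). That call is fragile: the fold change stayed between -0.73 and -0.58 when each of the 6 libraries was left out, but the adjusted p rose to 0.0787 to 0.144, with the loss of any of the mice C1594, B4437, B4376, Z2785, Z2755 and Z2754 enough. It was also lost without the filter on low counts (adjusted p = 0.0694), with edgeR length offsets (0.0526), on the standard reference (0.0723) and in the deposited gene counts (0.1004), and kept with DESeq2 (0.00318). Against Eµ-MTCP1 the difference was -0.52 (SE 0.18, unadjusted p = 0.0165, adjusted p = 0.678). H2-DMb2, the paralog next to it at chr17:34143307-34151555, was at 742, 1268 and 1029 CPM in Eµ-MTCP1, 1772, 900 and 959 CPM for Eµ-TCL1 and 1224, 1177 and 1215 CPM in wildtype mice. Wildtype mice were close together, and Eµ-TCL1 mouse C1594 stood alone at the top. Because the 2 beta chain genes are alike in sequence, reads could be divided wrongly between them, and the level of each is less certain than that of H2-DMa. H2-DMa ranged from 661 to 1032 CPM over all mice, with log2 fold changes of -0.09 (95% interval -0.62 to 0.44) in Eµ-MTCP1 and of -0.03 (-0.56 to 0.50) in Eµ-TCL1 mice.

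Both chains of H2-DO were lower in the transgenic mice without reaching the threshold. H2-Oa was at 214, 327 and 245 CPM in Eµ-MTCP1, 240, 210.5 and 274 CPM for Eµ-TCL1 and 486, 333 and 329 CPM in wildtype mice. H2-Ob was at 193, 353 and 334.5 CPM, at 366, 167 and 205 CPM, and at 523, 414 and 470 CPM. For both genes all 6 transgenic mice were below all 3 wildtype mice, although Eµ-MTCP1 mouse Z2606 was at 327 CPM and the lowest wildtype mouse at 329 CPM for H2-Oa. The log2 fold changes in Eµ-MTCP1 were -0.55 for H2-Oa (SE 0.23, adjusted p = 0.177) and -0.68 for H2-Ob (SE 0.32, adjusted p = 0.218). In Eµ-TCL1 they were -0.66 (SE 0.23, adjusted p = 0.106) and -0.93 (SE 0.32, adjusted p = 0.101). When each library was left out, H2-Oa ranged from -0.77 to -0.34 in Eµ-MTCP1 and from -0.78 to -0.46 in Eµ-TCL1. H2-Ob then ranged from -0.87 to -0.48 in Eµ-MTCP1 and from -1.33 to -0.74 in Eµ-TCL1. H2-Ob in Eµ-TCL1 passed the threshold on the standard reference (-1.16, adjusted p = 0.0343), in the deposited gene counts (-1.12, adjusted p = 0.0390), with DESeq2 (-0.95, adjusted p = 0.0288, and 0.0333 with length offsets) and without Eµ-TCL1 mouse C1594 (-1.33, adjusted p = 0.0294). H2-Oa in Eµ-TCL1 passed it with DESeq2 (adjusted p = 0.0429). With Ciita these made 3 of the 10 genes whose Eµ-MTCP1 mice all lay below the wildtype mice, as did 15.3% of all genes. In Eµ-TCL1 it was 4 of 10, H2-DMb1 being added, against 16.1% of all genes.

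The 2 leukemias were not told apart by these genes. In Eµ-TCL1 against Eµ-MTCP1 0 of the 10 genes were called by edgeR and 0 by DESeq2, where edgeR called 5 of all genes (0.0448%) and DESeq2 73 (0.657%). At an unadjusted p under 0.05 there was 1 gene, H2-DMb1, against 6.42% of all genes. H2-DMb1 was likewise the only gene of the 10 whose Eµ-TCL1 mice all lay below the Eµ-MTCP1 mice, as did 5.62% of all genes. The fitted differences ran from -0.52 for H2-DMb1 to 0.26 for H2-DMb2, and the 95% intervals of the other 9 genes included 0. At 3 mice per group these intervals do not show that the leukemias were alike.

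**Figure D2:**
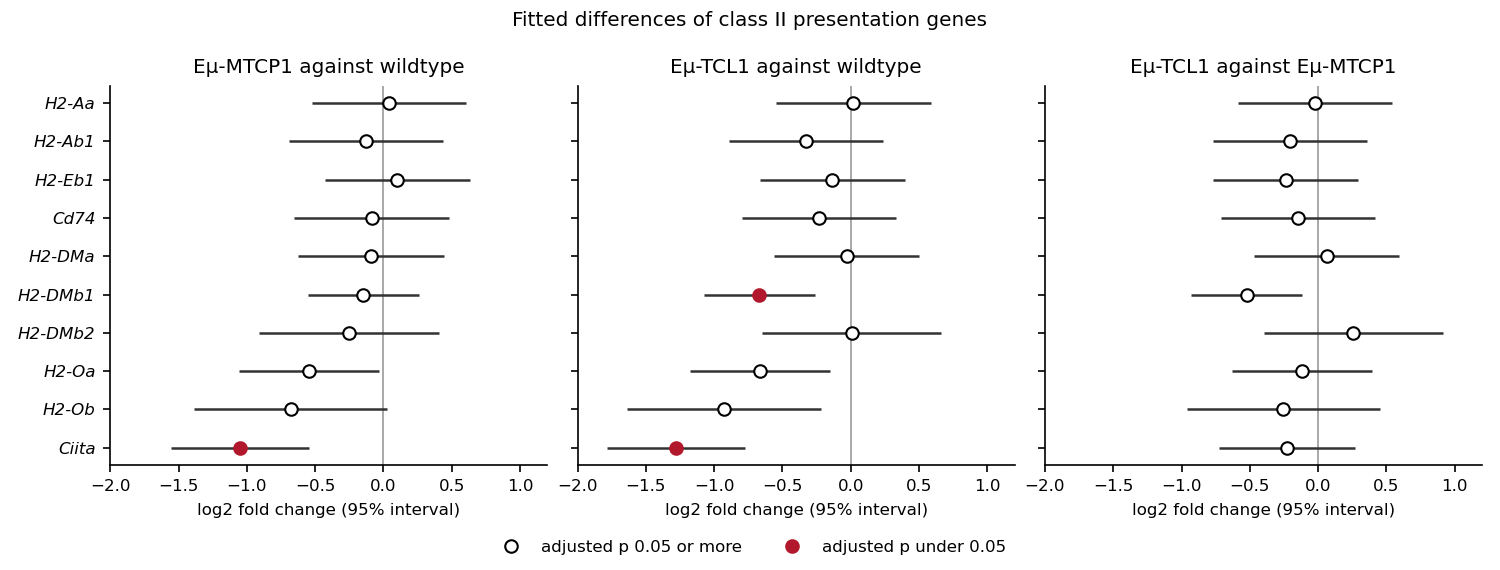
Log2 fold changes of the 10 genes with 95% intervals (horizontal lines) in the 3 comparisons. Filled points had an adjusted p under 0.05: Ciita at -1.05 in Eµ-MTCP1 and at -1.28 in Eµ-TCL1 against wildtype, and H2-DMb1 at -0.67 in Eµ-TCL1.

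The balance between chains was compared as 6 ratios of TPM within each library, which do not depend on how libraries are scaled. The ratio of DO to DM chains was 0.222, 0.247 and 0.261 in Eµ-MTCP1, 0.178, 0.204 and 0.238 for Eµ-TCL1 and 0.363, 0.311 and 0.305 in wildtype mice. All 6 transgenic mice had less H2-DO for each H2-DM than any wildtype mouse. The mean log2 ratio was 0.54 lower (-2.16 against -1.62) (exact permutation test, two-sided p = 0.0119, adjusted p = 0.0714 over 6 ratios). The ratio of H2-Aa to H2-Ab1 was 0.620 ± 0.0445 (SD, n = 6) in transgenic and 0.512 ± 0.0559 (n = 3) in wildtype mice, with Z2606 at 0.553 under the highest wildtype mouse at 0.570 (exact permutation p = 0.0238, adjusted p = 0.0714). An unadjusted p under 0.05 for that ratio was lost without Z2551, B4376, Z2755 or Z2754 (exact permutation p of 0.0536 to 0.107). Neither ratio passed 0.05 after adjustment, which a single ratio at the smallest p could not do. The other ratios did not separate the 6 transgenic from the wildtype mice: Cd74 to I-A was 2.52 ± 0.241 and 2.54 ± 0.0979 (exact permutation p = 0.845), H2-Eb1 to H2-Ab1 0.502 ± 0.0580 and 0.437 ± 0.0760 (exact permutation p = 0.190), H2-Oa to H2-Ob 1.40 ± 0.388 and 1.11 ± 0.169 (exact permutation p = 0.333), and H2-DMb2 to H2-DMb1 4.97 ± 1.97 and 3.99 ± 0.188 (exact permutation p = 0.500) in transgenic and wildtype mice. H2-DMb2 to H2-DMb1 was 2.78, 4.11 and 4.37 in Eµ-MTCP1, 8.56, 4.43 and 5.54 for Eµ-TCL1 and 3.88, 3.88 and 4.21 in wildtype mice. All Eµ-TCL1 mice lay above all wildtype mice (mean log2 ratio higher by 0.58, exact permutation p = 0.1, the smallest that 3 against 3 allow), whereas Eµ-MTCP1 mice overlapped with the wildtype mice (-0.12, exact permutation p = 0.9, and 0.09 without Z2641). The Eµ-TCL1 difference leaned most on C1594, whose ratio of 8.56 stood furthest from wildtype. The leukemias were not compared with each other for this ratio.

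**Figure D3:**
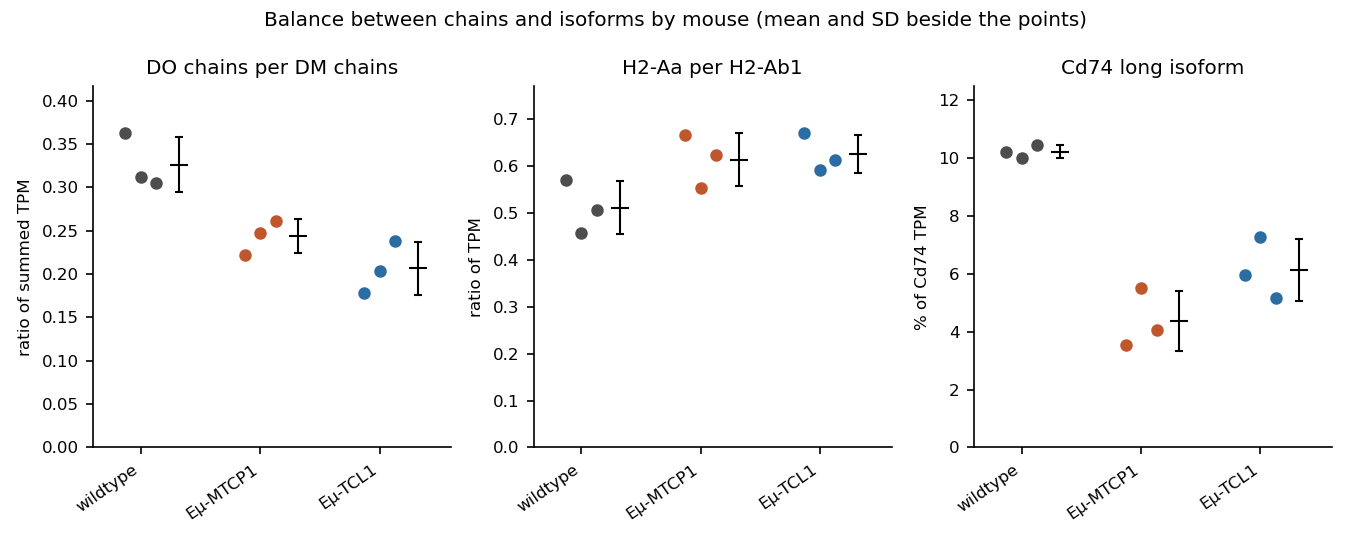
Ratio of summed TPM of H2-DO to H2-DM chains, ratio of TPM of H2-Aa to H2-Ab1, and share of Cd74 TPM on its long isoform (percent) in each mouse, with the mean and SD (n = 3) beside the points and axes from 0. The DO to DM ratio of 0.178 to 0.261 and the long isoform share of 3.54 to 7.29% in transgenic mice lay below the wildtype values of 0.305 to 0.363 and 10.02 to 10.5%.

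The members varied between mice of a group as well, with a coefficient of variation of CPM from 2.05 to 43.0%. As a description over the 9 libraries, which share their groups, the members most alike in centred log2 CPM were H2-Ab1 and Cd74 (root mean square difference 0.11, r = 0.91) and the least alike H2-Aa and Ciita (0.62, r = 0.075). H2-Oa and H2-Ob had r = 0.88 and 0.85 with Ciita over the 9 libraries and 0.78 and 0.83 within the 6 transgenic mice. H2-Ob with Cd74 had r = 0.84 and 0.97, and H2-Aa with Ciita had 0.50 within the transgenic mice. By root mean square difference H2-Oa was nearer to H2-Ab1 (0.255) and Cd74 (0.264) than to Ciita (0.321). H2-Ob was nearer to Ciita (0.321) than to Cd74 (0.384). Outside the 10, genes whose profile was near the mean profile of the members included Ppp1r37, Gabarapl2, Mcoln1 and Hars2, with root mean square differences of 0.14 to 0.15 log2 CPM over 9 libraries. Cd74 itself was at 0.10 from that mean profile and Ciita at 0.41.

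Other genes of the pathway were examined as lists. H2-Eb2, a class II beta chain of low abundance whose X and Y stretch is printed above, was at 5.45, 11.1 and 5.09 CPM in Eµ-MTCP1, 6.58, 8.10 and 6.92 CPM for Eµ-TCL1 and 24.3, 19.1 and 21.6 CPM in wildtype mice. It was called lower in both leukemias (log2 fold change -1.58, SE 0.35, adjusted p = 0.0181, and -1.59, SE 0.35, adjusted p = 0.0172). The calls were lost without Z2551, Z2785 or Z2754 in Eµ-MTCP1 (adjusted p up to 0.0694) and without C1594, B4376, Z2785 or Z2754 in Eµ-TCL1 (up to 0.0672). H2-Ea-ps, the E alpha pseudogene, had 0 to 8 reads and was not tested. Of 8 factors bound at class II promoters 1 was called by edgeR in each leukemia (9.48% and 9.2% of all genes). This was Rfxap, a subunit of the RFX complex that binds the X box. Rfxap fell from 37.4 ± 2.67 CPM (SD, n = 3) in wildtype to 20.7 ± 4.42 CPM in Eµ-MTCP1 (-0.85, SE 0.23, adjusted p = 0.0461) and 19.5 ± 3.16 CPM in Eµ-TCL1 mice (-0.94, SE 0.23, adjusted p = 0.0315). That call was lost in Eµ-MTCP1 without any library other than Z2606 (adjusted p of 0.0885 to 0.129) and in Eµ-TCL1 without any other than B4376 (0.0669 to 0.104). In the deposited gene counts neither was called (adjusted p = 0.0614 and 0.0600), and the Eµ-MTCP1 call was also lost without the filter (0.0620), with edgeR length offsets (0.0597) and with only the groups compared (0.0600). DESeq2 called 1 factor in each leukemia (14.8% and 15.3% of all genes).

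Of 10 regulators of Ciita 2 were called by edgeR in each leukemia, 1 in each direction (9.48% and 9.2% of all genes were called), and 4 and 3 by DESeq2 in Eµ-MTCP1 and Eµ-TCL1 (14.8% and 15.3% of all genes). Prdm1, the plasma cell factor known to shut off Ciita, was at 28.6, 123 and 65.8 CPM in Eµ-MTCP1, 74.1, 41.1 and 63.5 CPM for Eµ-TCL1 and 24.5, 13.8 and 12.1 CPM in wildtype mice. The log2 fold changes were 2.11 (SE 0.49, adjusted p = 0.0227) and 1.83 (SE 0.48, adjusted p = 0.0401). They were not called without Z2606, Z2551, Z2755 or Z2754 in Eµ-MTCP1 (adjusted p of 0.0544 to 0.112) or without C1594, B4376, Z2755 or Z2754 in Eµ-TCL1 (0.0868 to 0.153), and the Eµ-TCL1 call was also lost with edgeR length offsets (1.81, adjusted p = 0.0515). Bcl6, the germinal centre repressor, was at 14.4 ± 3.88, 10.1 ± 6.65 and 65.0 ± 11.6 CPM in Eµ-MTCP1, Eµ-TCL1 and wildtype mice (-2.17 and -2.69, adjusted p = 0.00939 and 0.00340), and both calls held without any single library. The list median was -0.52 and -0.31. Among the 9 tested genes that process the invariant chain and antigen 1 was called by edgeR, Ctsl, a cathepsin of thymic epithelium and macrophages, which was lower in Eµ-TCL1 (-2.09, SE 0.40, adjusted p = 0.00898) and at -1.27 (adjusted p = 0.0685) in Eµ-MTCP1, where it was called with DESeq2 (0.0254), by library size alone (0.0370) and without Z2606 (0.0328). The other 8, including the B cell protease Ctss, were not called by edgeR, so that it called 0 and 1 of the 9 (9.48% and 9.2% of all genes). DESeq2 called 2 genes of the list in each leukemia (14.8% and 15.3% of all genes), and the list median was 0.23 and 0.21.

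Of the 2 tested genes that set the turnover of class II at the surface, 1 was called in Eµ-MTCP1 and 0 in Eµ-TCL1 (9.48% and 9.2% of all genes). Cd83, which protects class II from ubiquitination, was at 69.6 ± 22.2 CPM in Eµ-MTCP1, 119.6 ± 23.5 CPM for Eµ-TCL1 and 172 ± 25.4 CPM in wildtype mice. It was called in Eµ-MTCP1 (-1.31, SE 0.27, adjusted p = 0.0126), and in Eµ-TCL1 its value was -0.53 (adjusted p = 0.244). The difference between the leukemias was not called (adjusted p = 0.639). March1, the other gene tested, was also lower without being called. Its edgeR values were -0.41 (adjusted p = 0.348) in Eµ-MTCP1 and -0.62 (unadjusted p = 0.0358, adjusted p = 0.165) in Eµ-TCL1. The net effect on turnover was not tested. Of the 4 genes for ligands and partners of CD74 at the surface, Cd44, its signalling partner, rose in both leukemias (1.23, SE 0.31, adjusted p = 0.0331, and 1.85, SE 0.31, adjusted p = 0.00482) and Cxcr4 fell (-1.60, SE 0.42, adjusted p = 0.0395, and -1.78, SE 0.42, adjusted p = 0.0250). The ligands Mif and Ddt were not called, so that 2 of the 4 were called in each leukemia (9.48% and 9.2% of all genes). The Cd44 call in Eµ-TCL1 held without any single library, that in Eµ-MTCP1 held only without Z2641 (adjusted p up to 0.134 otherwise), and it was also lost by library size alone (0.0654), on the standard reference (0.118), in the deposited gene counts (0.117) and with only the groups compared (0.0611). The Cxcr4 call was lost in Eµ-MTCP1 without any library other than Z2606 (adjusted p up to 0.131) or with only the groups compared (0.0556), and in Eµ-TCL1 without any of the 6 (0.0556 to 0.0921). None of the 9 class I genes was called by edgeR in either comparison with wildtype, where 9.48% and 9.2% of all genes were. At an unadjusted p under 0.05 there were 0 and 2 in Eµ-MTCP1 and Eµ-TCL1 (25% and 25.1% of all genes). DESeq2 called 0 and 1 of them (14.8% and 15.3% of all genes). H2-K1 stood at 2575.5 ± 852, 3767 ± 1462 and 2517.5 ± 722 CPM and H2-D1 at 4025 ± 873, 5318 ± 427 and 4030 ± 530 CPM in Eµ-MTCP1, Eµ-TCL1 and wildtype mice.

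Some markers of other antigen-presenting cells differed between the groups. The 8 dendritic cell markers summed (like the sums that follow, before TMM scaling) to 23.6 to 94.3 CPM in Eµ-MTCP1, 71.0 to 99.1 for Eµ-TCL1 and 539 to 605 in wildtype mice. Most of that was Ccr7, a homing receptor also made by B cells, which was called lower in both leukemias (-3.47, adjusted p = 0.00119, and -2.83, adjusted p = 0.00290). Without Ccr7 the list summed to 3.46 to 19.96, 2.68 to 40.1 and 33.0 to 58.9 CPM. Flt3, a receptor of dendritic cell precursors, was called in Eµ-TCL1 (-3.06, SE 0.66, adjusted p = 0.0168, and 0.0634 without Z2755). In Eµ-MTCP1 it was at -1.80 (adjusted p = 0.105, and 0.0307 with DESeq2, 0.0451 with its length offsets), with all mice below the wildtype mice. The defining markers Clec9a and Xcr1 had at most 2 and 6 reads in any library, and Zbtb46 at most 12. The 9 macrophage and monocyte markers summed to 507 to 912, 348 to 1441 and 794 to 1324 CPM. Of these edgeR called 1, Cd68, higher in both leukemias (2.06, adjusted p = 0.00316, and 1.91, adjusted p = 0.00462), where it called 9.48% and 9.2% of all genes. In Eµ-TCL1 5 of the 9 had an unadjusted p under 0.05, as did 25.1% of all genes, and DESeq2 called 3 (15.3% of all genes). The other 4 of these 5, named after their values were seen, were C1qa, C1qb, C1qc and Cd14, at -3.02, -2.99, -3.03 and -1.59 in Eµ-TCL1 and at -1.19, -1.52, -1.31 and -1.36 in Eµ-MTCP1, where none of the 4 had an unadjusted p under 0.05. The remaining markers of the list, Csf1r, Adgre1, Lyz2 and Itgam, were at -0.35, -0.21, -0.57 and 0.20 in Eµ-TCL1 and at -1.08, 0.75, -0.96 and 0.78 in Eµ-MTCP1. The 5 plasma cell markers summed to 302 to 2691, 103 to 1951 and 865 to 1331 CPM. Prdm1 was the 1 marker of these called by edgeR in each leukemia (9.48% and 9.2% of all genes). For the T and NK cell markers the sums were 5.89 to 21.1, 10.1 to 52.8 and 5.24 to 15.6 CPM, and the 2 most abundant tested were Cd3g and Ncr1. Cd3g, a chain of the T cell receptor complex, was at 0.492 to 22.5 CPM in Eµ-MTCP1, 7.42 to 20.2 CPM for Eµ-TCL1 and 1.19 to 1.73 CPM in wildtype mice. All Eµ-TCL1 mice lay above the wildtype mice (log2 fold change 3.05, unadjusted p = 0.0193, adjusted p = 0.116), and with only the groups compared edgeR called it (3.01, adjusted p = 0.00881). In Eµ-MTCP1 the groups overlapped (2.51, unadjusted p = 0.0439, adjusted p = 0.187), and without Z2641 the value was -0.38. Ncr1 was at 0 to 6.80 CPM over all mice. In the fit over all 9 libraries, none of the 7 B cell, 3 T and NK cell and 4 neutrophil markers tested was called by edgeR against wildtype (9.48% and 9.2% of all genes). At an unadjusted p under 0.05 there were 1, 1 and 0 of them in Eµ-MTCP1 and 3, 1 and 2 in Eµ-TCL1 (25% and 25.1% of all genes). DESeq2 called 2 B cell markers in Eµ-TCL1 and 0 of the others (14.8% and 15.3% of all genes in Eµ-MTCP1 and Eµ-TCL1). The part of other cells in the differences of Ciita, H2-DO, H2-Eb2 and the long Cd74 isoform was not tested.

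**Figure D4:**
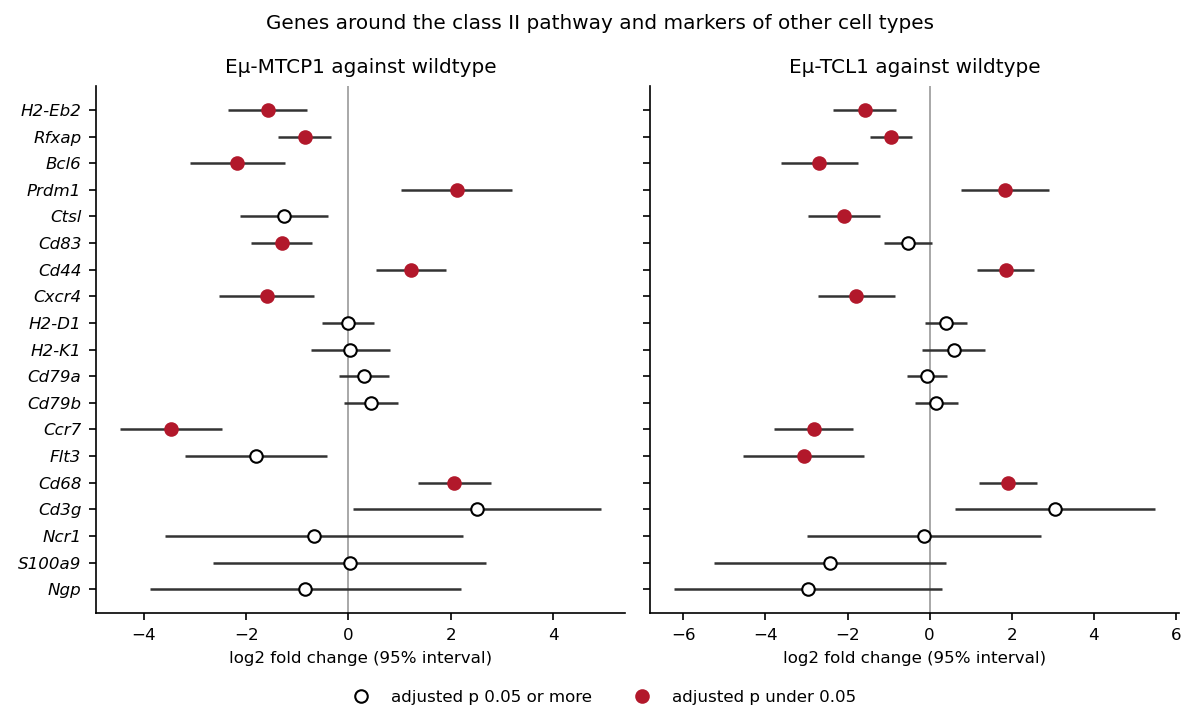
Log2 fold changes against wildtype with 95% intervals (horizontal lines) of genes around the class II pathway and of markers of other cell types, in Eµ-MTCP1 and Eµ-TCL1 mice. Filled points had an adjusted p under 0.05. H2-Eb2, Rfxap, Bcl6, Cxcr4 and Ccr7 lay below 0 and Prdm1, Cd44 and Cd68 above 0 in both, with Ccr7 at -3.47 and -2.83.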

How the data were processed

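RNA-sequencing of splenic B cells, isolated by depletion of other cells, was used. Per the labels, cDNA was preamplified with a SMARTer v4 kit, libraries were made with Nextera XT and a TruSeq stranded kit is also named. Estimated counts and TPM per transcript were deposited by the authors (Salmon 1.0.0, per the submitters' processing notes), once on 57871 mainly coding sequences with 17 human transcripts and once on 140748 transcripts. Most lengths on the first equal coding lengths, so reads of UTRs are not counted there. Whole counts for 50600 genes were deposited too, and HISAT2 2.0.6, featureCounts and build GRCm38.p4 are named in the notes. A table of log2-like normalized values by the authors (DESeq2) was used for the transgenes alone. Its columns of fold changes and p-values between groups, and a coverage-filtered count table, were not used. All sample columns were mapped, 0 were left over.

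Transcripts were summed per gene with GENCODE M21 (the paper names release 23), rounded, and 0.190 to 0.291% of reads without a match were dropped. Genes were filtered by filterByExpr, scaled by TMM and fitted across all genes with edgeR 4.0.16 (R 4.3.3) with 1 coefficient per group; all tests were two-sided. SE is the fold change divided by the root of F. CPM values are TMM scaled, and summed marker levels are CPM of assigned reads before TMM. Replicates are separate mice. Shares and ratios were compared by exact permutation of 6 transgenic against 3 wildtype mice. Reads were not collapsed by molecule, so counting error is the least error of a level; 3 reads were 0.326 to 0.495 CPM. Scripts were tested on simulated data. Alternatives were other scalings, filters, DESeq2 1.42.0, length offsets, the other references and leaving out each library. The members and all gene lists were chosen with earlier results of these data known. Named were the 10 members, each listed gene called in any comparison (otherwise the 2 most abundant of its list) and the 5 genes nearest in profile with at least 5 CPM, of which 1 is not reported here.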

Additional observations from a re-analysis of the deposited data

How the results depend on the processing

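No paired analysis was possible because the labels name mice and give no shared replicate numbers. Leaving out each library gave 525 to 943 called genes in Eµ-MTCP1 against wildtype, 517 to 829 in Eµ-TCL1 against wildtype and 5 to 8 between the leukemias, and 0 to 1 and 1 to 2 called members against wildtype. DESeq2 called 1646, 1695 and 73 genes, DESeq2 with length offsets 1628, 1696 and 104, and edgeR without the filter 16 between the leukemias. In Eµ-TCL1 against wildtype 4 members were called with DESeq2 and 1 without the filter or with edgeR length offsets. Without TMM factors the median of all genes went to -0.26 and -0.15 against wildtype (from -0.021 and -0.0095), and the share of calls that were higher went from 57.9 to 34.9% and from 55.1 to 42.9%; without immunoglobulin genes it was 67.6 and 65.9%.

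Of 480 values of the members under alternatives, 422 kept direction and side of the threshold, 13 lost and 6 gained it, and 39 turned in sign, none of them called. Without TMM, H2-Aa was at -0.18 in Eµ-MTCP1, -0.12 in Eµ-TCL1 and 0.068 between leukemias, H2-Eb1 at -0.12 in Eµ-MTCP1, H2-DMb2 at -0.14 in Eµ-TCL1, H2-K1 at -0.18 and S100a9 at -0.31 in Eµ-MTCP1. With only the groups compared, H2-Aa and H2-DMb2 in Eµ-TCL1 were at -0.018 and -0.031. On the standard reference and in the gene counts, H2-Aa between leukemias was at 0.016 and 0.021, H2-DMa in Eµ-TCL1 at 0.065 and 0.059, H2-K1 in Eµ-MTCP1 at -0.039 and -0.038 and Ncr1 in Eµ-TCL1 at 0.074 and 0.26; H2-D1 in Eµ-MTCP1 was at 0.0024 on the former. With edgeR length offsets H2-DMa in Eµ-TCL1 was at 0.0069 and H2-DMb2 at -0.017. H2-DMb2 in Eµ-TCL1 was at -0.0089 with RLE factors and with DESeq2 and at -0.028 with DESeq2 length offsets. The cause was not tested.

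Leaving out each library turned these signs: in Eµ-MTCP1 against wildtype H2-Aa (-0.18 to 0.14), H2-Eb1 (-0.093 to 0.28), H2-DMa (-0.26 to 0.047), Cd74 (-0.26 to 0.026), H2-D1 (-0.18 to 0.097), H2-K1 (-0.23 to 0.29), Cd3g (-0.38 to 3.06), Ncr1 (-1.37 to 1.09), S100a9 (-2.51 to 1.72) and Ngp (-3.78 to 1.18); in Eµ-TCL1 against wildtype H2-Aa (-0.18 to 0.12), H2-Eb1 (-0.33 to 0.045), H2-DMa (-0.21 to 0.11), H2-DMb2 (-0.37 to 0.15), Cd79a (-0.22 to 0.035), Cd79b (-0.038 to 0.29) and Ncr1 (-1.89 to 1.64); between the leukemias H2-Aa (-0.22 to 0.16), H2-Ab1 (-0.37 to 0.025), H2-DMa (-0.12 to 0.20), H2-DMb2 (-0.12 to 0.45) and H2-Oa (-0.25 to 0.075). The log2 ratio of Cd74 to I-A ranged from -0.063 to 0.014 and that of H2-Aa to H2-Ab1 from 0.20 to 0.36. The DO to DM ratio (-0.64 to -0.46) and the long Cd74 isoform share (-6.51 to -4.62 percentage points) kept their sign in the alternatives run. Since both separate all transgenic from all wildtype mice, leaving out a mouse can give no p other than the smallest one, which says nothing on stability.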
